A study of Mus musculus with 473 samples.

Results

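The cells compared here are 44 of the 473 single cells of the series. They are the 20 cells that the labels place in the midbrain cluster E15.MB.2 and the 24 cells placed in the forebrain cluster E15.FB.2. Cells were picked by these labels, and this pair of clusters was chosen with earlier results of these data known. Smart-Seq2 libraries, which cover whole poly(A) transcripts, were made from each cell. The E15.MB.2 cells came from the dissected midbrain and the E15.FB.2 cells from the dissected forebrain, which the protocol names as hypothalamus. All were taken at embryonic day 15.5 (E15.5) from EGFP+ offspring of hemizygous Th:EGFP males (Tg(Th-EGFP)DJ76Gsat/Mmnc) and wild-type Swiss Webster females. In this bacterial artificial chromosome line, regulatory sequences of the tyrosine hydroxylase gene Th drive the reporter EGFP, so both groups were sorted for the same fluorescence. Tissue of 4 embryos was pooled per region, so each region is 1 pool. Cells are not replicates, no test was made, and the numbers below describe these cells. Both groups lie on both library plates, with 11 and 9 E15.MB.2 cells and 14 and 10 E15.FB.2 cells on plates TH01_14.15 and TH01_15.14. The sample titles, however, give the cells of each region a code of their own. Differences that go with this code cannot be told apart from region, also where both library plates have the same direction.

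Midbrain dopaminergic neurons are specified in the ventral midbrain by transcription factors such as Lmx1a, Foxa2, En1, Nr4a2 and Pitx3. They make dopamine from tyrosine with the enzymes Th and Ddc, load it into vesicles with Slc18a2 and take it back up with Slc6a3. They are the neurons of the substantia nigra and ventral tegmental area, and those of the substantia nigra degenerate in Parkinson disease. Dopaminergic neurons also occur in the hypothalamus and other forebrain nuclei, where many of them make the inhibitory transmitter GABA as well.

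The promoters of 4 genes that carry out dopamine synthesis, storage and reuptake are shown because these genes carry out the steps that define a dopaminergic neuron. Each runs from 250 bases before to 50 bases after the annotated start, 5′ to 3′ on the strand of the gene, from RefSeq on build GRCm38.p6, the assembly also called mm10. Capitals mark a palindromic cAMP response element (TGACGTCA) in Th and Slc18a2 and, in Ddc, the reverse complement of the Nr4a binding motif AAAGGTCA. The positions are chr7:142899946-142900245 for Th, minus strand, and chr19:59260628-59260927 for Slc18a2, plus strand. For Ddc the window of 1 of its 2 annotated starts is shown, chr11:11898095-11898394, minus strand (the other, chr11:11890359-11890658, holds none of the motifs searched), and for Slc6a3 it is chr13:73536497-73536796, plus strand.
Th: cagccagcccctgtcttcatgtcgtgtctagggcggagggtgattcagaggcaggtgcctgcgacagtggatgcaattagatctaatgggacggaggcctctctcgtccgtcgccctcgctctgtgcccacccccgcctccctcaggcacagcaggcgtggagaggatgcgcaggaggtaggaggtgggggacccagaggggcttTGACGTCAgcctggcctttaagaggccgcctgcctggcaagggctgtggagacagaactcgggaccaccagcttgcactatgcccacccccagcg
Slc18a2: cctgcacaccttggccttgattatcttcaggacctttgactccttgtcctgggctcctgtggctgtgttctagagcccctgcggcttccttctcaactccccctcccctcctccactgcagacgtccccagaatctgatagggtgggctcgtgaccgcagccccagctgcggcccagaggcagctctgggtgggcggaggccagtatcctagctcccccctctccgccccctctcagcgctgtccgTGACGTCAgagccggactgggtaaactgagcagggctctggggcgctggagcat
Ddc: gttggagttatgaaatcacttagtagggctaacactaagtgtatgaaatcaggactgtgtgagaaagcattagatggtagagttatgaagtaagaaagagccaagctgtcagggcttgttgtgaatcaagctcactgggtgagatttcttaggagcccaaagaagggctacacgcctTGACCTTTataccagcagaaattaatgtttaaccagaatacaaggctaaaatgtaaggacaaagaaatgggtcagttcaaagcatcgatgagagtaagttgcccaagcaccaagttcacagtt
Slc6a3: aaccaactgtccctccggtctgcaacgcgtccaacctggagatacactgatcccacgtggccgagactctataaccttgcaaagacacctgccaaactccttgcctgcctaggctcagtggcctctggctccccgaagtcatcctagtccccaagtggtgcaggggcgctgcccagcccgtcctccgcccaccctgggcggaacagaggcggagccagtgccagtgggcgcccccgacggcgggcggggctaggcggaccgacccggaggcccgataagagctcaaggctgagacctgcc

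The cAMP response element began 45 bases before the start of Th and 4 bases before that of Slc18a2. The Nr4a motif lay 73 bases before the Ddc start shown. Of all 32851 RefSeq promoters of this length, 1.79% held TGACGTCA and 1.51% held AAAGGTCA on either strand. TAATCC, the Pitx motif, was in 7.06% of them, TAATTA, a homeodomain motif, in 5.29%, and TGTTTAC, a Fox motif, in 3.65%. Of 12 genes of dopamine synthesis, storage, reuptake, reception and breakdown with a RefSeq promoter, 2 held TGACGTCA and 1 held AAAGGTCA. Among the 12 genes with the highest E15.MB.2 over E15.FB.2 ratios, 10 had a promoter entry. Of these 10, 0 held TGACGTCA, AAAGGTCA or TAATCC, 2 held TAATTA and 2 held TGTTTAC. The 5 motifs were chosen after the values were seen. None was found in the Slc6a3 window, and no window shown holds 2 of them. A match of letters is a description of the sequence and says nothing of binding.

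Both enzymes that make dopamine from tyrosine, Th and Ddc, were higher in E15.MB.2 cells. Values are the deposited FPKM (fragments per kilobase of transcript, scaled per library). Differences are log2 ratios of the group means plus 1 FPKM, E15.MB.2 over E15.FB.2, which understate low genes. A gene is called higher or lower at 2-fold or more in the same direction on both plates, and a cell is said to have a gene at FPKM of 1 or more. Of the 13582 genes with a mean of at least 1 FPKM in either group, 1836 (13.5%) were called higher and 1597 (11.8%) lower. On the mean of log2(FPKM + 1) over cells the split was 2030 higher and 946 lower. Of the 8 synthesis and cofactor enzymes, 7 reached that mean, 5 were called higher and none lower.

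Th (ENSMUSG00000000214.10; chromosome 7, 142892752 to 142931128, minus strand), the rate-limiting enzyme, ran from 0 through a median of 1248 to 26079.6 FPKM in E15.MB.2 cells, and from 0 through a median of 0 to 579.5 FPKM in E15.FB.2 cells. It was present in 13 of 20 E15.MB.2 cells (65%, exact 95% interval 40.8 to 84.6%) and in 9 of 24 E15.FB.2 cells (37.5%, 18.8 to 59.4%). These intervals overlap and cover counting error only. The groups separated more by level than by presence, since 12 of the 13 Th-positive E15.MB.2 cells lay above the highest E15.FB.2 cell. The log2 ratio was 5.09, with 6.06 on plate TH01_14.15 (means of 6171 FPKM in E15.MB.2 and 91.5 FPKM in E15.FB.2) and 2.65 on plate TH01_15.14 (856 FPKM in E15.MB.2 and 136 FPKM in E15.FB.2). The direction was the same on both plates and the size was not. The reporter transcript eGFP was present in 11 E15.MB.2 cells and 3 E15.FB.2 cells, with a log2 ratio of 6.65. Every cell with eGFP in either group also had Th.

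Ddc (ENSMUSG00000020182.16; chromosome 11, 11814101 to 11898144, minus strand), the decarboxylase that makes dopamine from L-DOPA, ran from 0 through 1037 to 7328 FPKM in E15.MB.2 cells and from 0 through 0 to 261 FPKM in E15.FB.2 cells. It was present in 17 of 20 E15.MB.2 and 5 of 24 E15.FB.2 cells, and each of the 17 lay above the highest E15.FB.2 cell (log2 ratio 5.99). On plate TH01_15.14 it was listed at 0 in all 10 E15.FB.2 cells. Gch1, which makes the first intermediate of the Th cofactor tetrahydrobiopterin, was present in 11 E15.MB.2 cells (median 37.4, highest 1187 FPKM) and listed at 0 in every E15.FB.2 cell. Pcbd1, which recycles the cofactor, was present in 8 E15.MB.2 cells and also listed at 0 in every E15.FB.2 cell. Spr, the last enzyme of cofactor synthesis, was present in 4 E15.MB.2 and 2 E15.FB.2 cells (log2 ratio 2.29). Qdpr and Pts, the other cofactor enzymes measured above the minimum, were not called. Qdpr averaged 120.1 FPKM in both groups, and Pts averaged 26.8 FPKM in E15.MB.2 cells and 36.6 FPKM in E15.FB.2 cells. The median log2 ratio of the list was 5.09, against 0.01 over all genes tested, and 2.29 over the 5 members above 0 in both groups.

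Of the 6 genes for dopamine storage, reuptake, reception and breakdown, 5 were called higher in E15.MB.2 cells and none lower (median log2 ratio 3.06). Of the 6, 4 were above 0 in both groups. Slc6a3 (ENSMUSG00000021609.6; chromosome 13, 73536747 to 73578672, plus strand), the plasma membrane dopamine transporter, ran from 0 through 59.9 to 8579 FPKM in E15.MB.2 cells. It was listed at 0 in all 24 E15.FB.2 cells. It was present in 12 of 20 E15.MB.2 cells (60%, 36.1 to 80.9%) and 0 of 24 E15.FB.2 cells (0 to 14.25%), and 1 cell gave 42.7% of the E15.MB.2 total. Slc18a2, the vesicular monoamine transporter, ran from 0 through 169 to 1727 FPKM in E15.MB.2 cells and from 0 through 0 to 203 FPKM in E15.FB.2 cells, and was present in 17 E15.MB.2 and 5 E15.FB.2 cells (log2 ratio 4.72). Drd2, the dopamine autoreceptor, was present in 6 E15.MB.2 and 1 E15.FB.2 cells, and Maoa, which oxidises dopamine, in 9 E15.MB.2 and 1 E15.FB.2 cells. Drd2 was no longer called with the highest cell of each group left out on each plate. This removed the only E15.MB.2 cell with Drd2 on plate TH01_15.14.

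**Figure D1:**
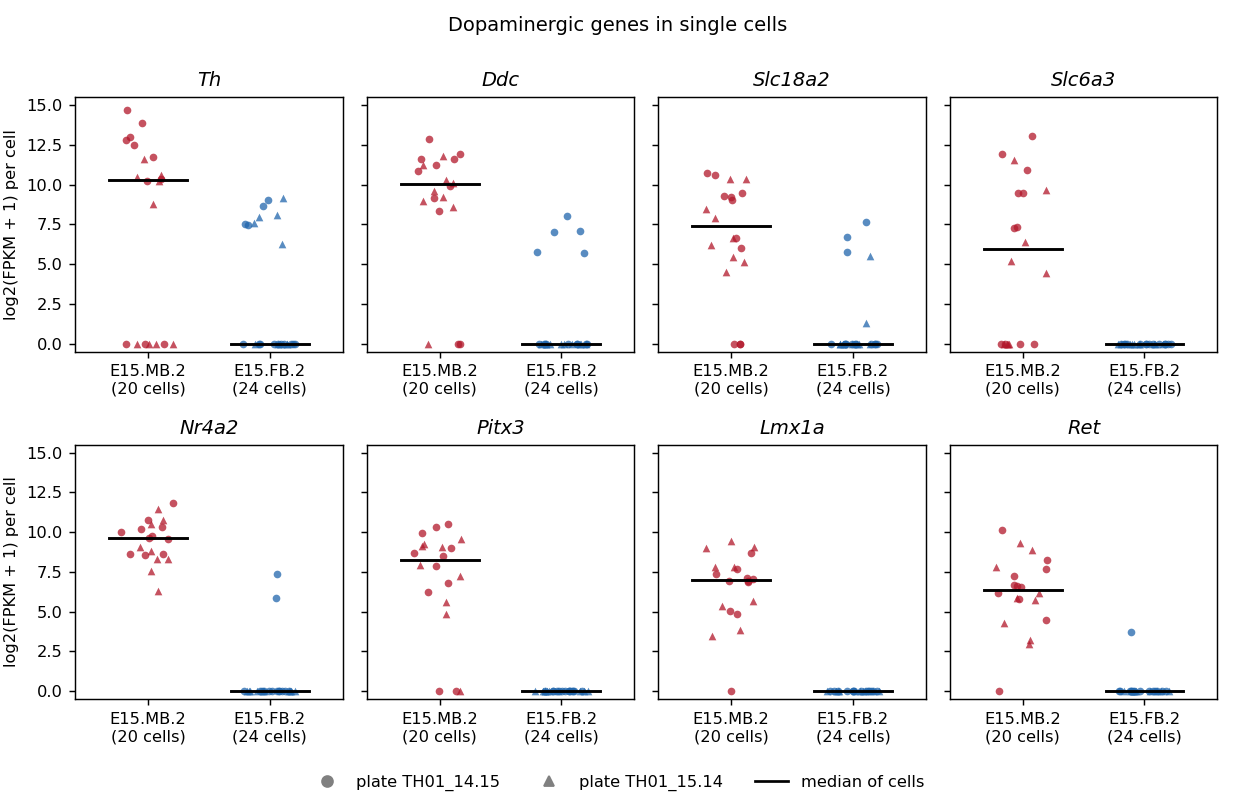
FPKM of 8 genes of midbrain dopaminergic neurons in each E15.MB.2 cell and each E15.FB.2 cell, on a log scale after adding 1 FPKM; circles are plate TH01_14.15, triangles plate TH01_15.14 and bars the medians. Nr4a2 lies above 0 in all 20 E15.MB.2 cells, while Slc6a3, Pitx3 and Lmx1a are listed at 0 in all 24 E15.FB.2 cells.

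Genes of dopamine synthesis, storage and reuptake were often present together within single E15.MB.2 cells. Most of these cells still lacked at least 1 of Th, Ddc, Slc18a2 and Slc6a3. Th, Ddc and Slc18a2 were all present in 11 of 20 E15.MB.2 cells and in 1 of 24 E15.FB.2 cells, and these 3 with Slc6a3 in 9 E15.MB.2 and 0 E15.FB.2 cells. Every E15.MB.2 cell had at least 1 of the 3, while 12 of 24 E15.FB.2 cells had none. In E15.MB.2, all 13 cells with Th had Ddc, and 4 had Ddc without Th. In E15.FB.2, 3 of the 9 cells with Th had Ddc, and 2 cells had Ddc without Th.

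Of 12 listed transcription factors of midbrain dopaminergic neurons, 10 reached the minimum, and all 10 were called higher in E15.MB.2 cells. Only 2 of the 10 were above 0 in both groups. The rest reached the minimum through E15.MB.2 alone, so they could not have come out lower. Nr4a2 (ENSMUSG00000026826.13; chromosome 2, 57106830 to 57124003, minus strand), an orphan nuclear receptor needed for the dopaminergic phenotype, ran from 77.6 through 782 to 3631 FPKM in E15.MB.2 cells and from 0 through 0 to 161 FPKM in E15.FB.2 cells. All 20 E15.MB.2 cells and 2 E15.FB.2 cells had it, and 19 of the 20 lay above the highest E15.FB.2 cell. Its log2 ratio was 6.66, and on plate TH01_15.14 it was listed at 0 in every E15.FB.2 cell.

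Pitx3, a homeodomain factor that controls dopaminergic genes, was present in 17 E15.MB.2 cells (median 297, highest 1472 FPKM). Its coordinates overlap those of Elovl3 on the opposite strand. Lmx1a, a LIM-homeodomain factor of the ventral midbrain, was present in 19 (median 126, highest 680.3 FPKM). The forkhead factors Foxa1 and Foxa2 were present in 17 and 10 E15.MB.2 cells, and En1, the homeodomain factor that marks the midbrain and hindbrain border, in 18. Lmx1b, the paralogue of Lmx1a, was present in 8. All 6 were listed at 0 in every E15.FB.2 cell.

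Sox6 and Otx2, which mark different subsets of midbrain dopaminergic neurons, were each present in 5 of 20 E15.MB.2 cells and listed at 0 in E15.FB.2. No cell had both, and 10 cells had neither. In Sox6, 1 cell on plate TH01_14.15 gave 63.4% of the E15.MB.2 total. On plate TH01_15.14 only 1 E15.MB.2 cell had Sox6, at 55.6 FPKM. Sox6 was no longer called when the highest cell was left out on each plate, which removed that cell. Of the 5 cells with Otx2, 4 had the neuropeptide gene Cck and 4 the calcium-binding protein gene Calb1. With 5 cells each, no exclusion can be read from this.

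Most E15.MB.2 cells had most of the midbrain dopaminergic markers. Of 10 midbrain dopaminergic markers, an E15.MB.2 cell had 3 to 10, with a median of 8, and 18 of 20 cells had at least 5. An E15.FB.2 cell had 0 to 3, with a median of 0.5, and 6 of the markers were listed at 0 there. Of 6 hypothalamic markers, an E15.MB.2 cell had 0 to 2, with a median of 0, and an E15.FB.2 cell 1 to 3, with a median of 2. The hypothalamic markers seen in E15.FB.2 were Isl1 in 24 cells, Six3 in 22 and Nkx2-1 in 1, while Rax, Otp and Six6 were listed at 0. Isl1 and Six3 are also expressed by neurons of other forebrain regions, so the markers do not settle the hypothalamic label, and the cells are called E15.FB.2 throughout. The sources used here do not say how the clusters were drawn. Where a cluster rests on the expression of these same cells, genes that set it apart are high in it partly through that choice.

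Effector genes of midbrain dopaminergic neurons followed, with 9 of the 11 members above the minimum called higher and none lower. Of the 11, 5 were above 0 in both groups, and only these could have gone either way. Ret (ENSMUSG00000030110.13; chromosome 6, 118151745 to 118197718, minus strand), the signalling receptor for GDNF family ligands, was present in 19 E15.MB.2 cells (median 82.6, highest 1126 FPKM) and 1 E15.FB.2 cell at 11.98 FPKM (log2 ratio 6.98). Its co-receptor Gfra1 went the other way without being called: it ran from 0 through 194 to 1269.8 FPKM in E15.MB.2 cells and from 105 through 370.1 to 1425 FPKM in E15.FB.2 cells, and was present in 15 E15.MB.2 and 24 E15.FB.2 cells (log2 ratio -0.93). Ret and Gfra1 were both present in 14 of 20 E15.MB.2 cells and in 1 of 24 E15.FB.2 cells. Ntrk2, the receptor for BDNF, was called lower in E15.MB.2 (medians of 21.0 FPKM in E15.MB.2 and 64.4 FPKM in E15.FB.2, log2 ratio -1.63), with -1.65 and -1.55 on the plates.

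Chrna6 and Chrnb3, nicotinic receptor subunits that assemble together in dopaminergic neurons, were present in 12 and 9 E15.MB.2 cells and listed at 0 in every E15.FB.2 cell. Chrna3 was called lower (5 of 20 E15.MB.2 and 9 of 24 E15.FB.2 cells, log2 ratio -1.21), and the other 4 subunits tested were not called. Aldh1a1, a retinaldehyde dehydrogenase of a ventral subset of substantia nigra neurons, was present in 6 E15.MB.2 cells, of which 1 at 9365 FPKM gave 46.3% of the total. All 6 cells had Slc6a3. Cck was present in 8 E15.MB.2 cells, and Aldh1a1 and Cck were listed at 0 in E15.FB.2. Slc10a4, a vesicular protein of monoaminergic and cholinergic neurons, was present in 14 E15.MB.2 and 7 E15.FB.2 cells with a log2 ratio of 4.54. Kcnj6, a potassium channel of dopaminergic neurons, was present in 3 E15.MB.2 cells and was not called.

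Among genes named by size, Serpine2, a secreted inhibitor of serine proteases, was present in 16 E15.MB.2 cells (median 537, highest 5210.0 FPKM). The zinc finger gene Bnc2 was present in 12. Both were listed at 0 in E15.FB.2. Dlk1, a Notch ligand homologue made by midbrain dopaminergic neurons, is already counted among the effector genes above. It was present in 16 E15.MB.2 cells and 1 E15.FB.2 cell (log2 ratio 7.92), and 1 cell at 8535 FPKM gave 54.2% of the E15.MB.2 total. Pdzrn4, a PDZ and RING finger protein, was present in 14 E15.MB.2 and 1 E15.FB.2 cells (7.80). C130021I20Rik, annotated next to Lmx1b on the opposite strand, was present in 19 E15.MB.2 cells and listed at 0 in E15.FB.2. Iqschfp was present in 19 E15.MB.2 and 0 E15.FB.2 cells, but it overlaps Iqcj and Schip1 on the same strand, so the split of reads among the 3 is uncertain.

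Presence in at least 50% of E15.MB.2 cells and in no E15.FB.2 cell was met by 29 genes (0.214% of those tested). They included the factors Ebf3, Uncx and Tshz1 and the guidance genes Ntn1 and Dcc beside those named above. The mirror rule, at least 50% of E15.FB.2 cells and no E15.MB.2 cell, was met by 9 genes (0.0663%), among them Six3, Dlx5, Sp8 and Rpp25. No gene had every E15.MB.2 cell above every E15.FB.2 cell. For 4 genes (0.0295%) every E15.FB.2 cell lay above every E15.MB.2 cell, and these were Isl1, Ecel1, Nr2f2 and Six3os1.

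**Figure D2:**
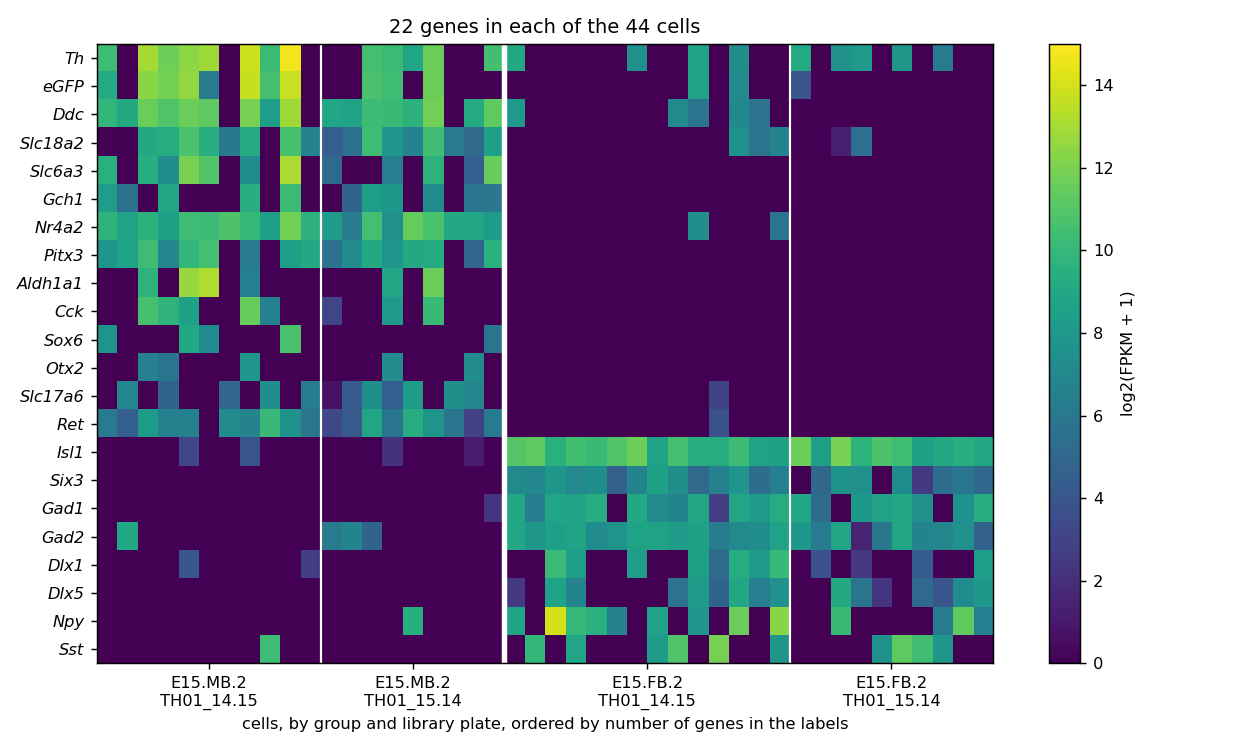
Log2(FPKM + 1) of 22 genes (rows) in the 44 cells (columns), E15.MB.2 cells left and E15.FB.2 cells right. Midbrain dopaminergic genes fill the left block with gaps, as for Th in 7 of 20 E15.MB.2 cells, and Isl1 and Gad2 fill the right block without gaps; thin white lines part the library plates.

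The forebrain factors Isl1 and Six3, the Dlx genes and the GABAergic genes were lower in E15.MB.2 cells than in E15.FB.2 cells. Isl1 (ENSMUSG00000042258.13; chromosome 13, 116298281 to 116309689, minus strand), a LIM-homeodomain factor, ran from 0 through 0 to 13.7 FPKM in E15.MB.2 cells and from 353 through 1001 to 3883 FPKM in E15.FB.2 cells. The groups did not overlap, and the log2 ratio was -9.16, with -8.80 and -9.78 on the plates. Six3, a homeodomain factor of the anterior forebrain, was listed at 0 in every E15.MB.2 cell and present in 22 of 24 E15.FB.2 cells (median 102, highest 375 FPKM). Its antisense neighbour Six3os1 was listed at 0 in E15.MB.2 and present in all 24 E15.FB.2 cells, but the 2 genes overlap, and without strand their reads cannot be told apart. Of the 23 hypothalamic and forebrain factors listed, 3 were called lower, 1 more reached the minimum, and 16 were listed at 0 in both groups. Of the 4 that reached it, only 2 were above 0 in both groups. The rest reached it through E15.FB.2 alone, so they could not have come out higher.

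Meis2, a homeodomain cofactor, was present in 1 E15.MB.2 cell at 7.54 FPKM and in 23 E15.FB.2 cells (median 556, highest 2162 FPKM), with a log2 ratio of -8.93. Nr2f2, the nuclear receptor also called COUP-TFII, ran from 0 through 0 to 25.0 FPKM in E15.MB.2 cells and from 80.5 through 244 to 1643 FPKM in E15.FB.2 cells (-7.58). Its coordinates overlap those of B130024G19Rik on the opposite strand. Ecel1, a membrane metalloprotease of neurons, ran from 0 through 0 to 41.6 FPKM in E15.MB.2 cells and from 198 through 699 to 3569 FPKM in E15.FB.2 cells (-7.98). Fign, a microtubule-severing ATPase, was present in 1 E15.MB.2 and 24 E15.FB.2 cells (-6.71), and Prox1, a homeodomain factor, in 2 E15.MB.2 and 18 E15.FB.2 cells (-6.47). Rpp25, a protein subunit of the RNA-processing enzyme RNase P, was listed at 0 in E15.MB.2 and present in 23 of 24 E15.FB.2 cells.

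The Dlx genes, which direct GABAergic differentiation in the forebrain, were all called lower in E15.MB.2 cells (4 of 4). Over all genes tested, 11.8% were called lower. Dlx1 was present in 2 E15.MB.2 and 12 E15.FB.2 cells, and Dlx2 in 1 E15.MB.2 and 11 E15.FB.2 cells. Dlx5 was listed at 0 in E15.MB.2 and present in 16 E15.FB.2 cells, and Dlx6 was listed at 0 in E15.MB.2 and present in 10 E15.FB.2 cells. Dlx5 and Dlx6 reached the minimum through E15.FB.2 alone, so they could not have come out higher. At least 1 Dlx gene was present in 2 of 20 E15.MB.2 cells and 22 of 24 E15.FB.2 cells. No single Dlx gene was present in all E15.FB.2 cells. Dlx1 overlaps Dlx1as on the opposite strand.

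All 5 GABAergic genes were called lower in E15.MB.2 (median log2 ratio -2.46), beside 11.8% of all genes tested. Gad2 (ENSMUSG00000026787.3; chromosome 2, 22622205 to 22693874, plus strand), a glutamate decarboxylase that makes GABA, ran from 0 through 0 to 497 FPKM in E15.MB.2 cells and from 1.74 through 228 to 499.9 FPKM in E15.FB.2 cells. It was present in 4 E15.MB.2 and 24 E15.FB.2 cells, with a log2 ratio of -2.76, and 1 E15.MB.2 cell gave 70.0% of that group's total. Gad1, the other decarboxylase, was present in 1 E15.MB.2 cell at 3.85 FPKM and in 21 E15.FB.2 cells (median 353 FPKM, log2 ratio -8.05), and it shares sequence with the pseudogene Gad1-ps. Abat, which breaks GABA down, was present in 11 E15.MB.2 and 24 E15.FB.2 cells (-2.46). Slc32a1, the vesicular GABA transporter, was present in 4 E15.MB.2 and 14 E15.FB.2 cells (-1.11).

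Gad2 was present in 1 of the 13 E15.MB.2 cells with Th and in all 9 E15.FB.2 cells with Th, as in every E15.FB.2 cell. Gad1 was present in 7 of the 9 E15.FB.2 cells with Th and in 14 of the 15 without it. Of the glutamatergic genes, Slc17a6, the vesicular glutamate transporter of the midbrain and diencephalon, was present in 11 E15.MB.2 cells (median 20.6, highest 299.8 FPKM) and 1 E15.FB.2 cell (log2 ratio 5.58). Within E15.MB.2, Slc17a6 and Slc6a3 together covered all 20 cells: 9 cells had Slc6a3 alone, 8 had Slc17a6 alone and 3 had both. In 1 cell counted as Slc6a3 alone, Slc17a6 was at 0.69 FPKM, below the limit for presence. Several gene pairs were counted in these 20 cells, and no exclusion can be read from this one. Th was present in 5 of the 11 cells with Slc17a6 and in 8 of the 9 without it. No noradrenergic, serotonergic or cholinergic gene of the 8 listed reached the minimum.

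**Figure D3:**
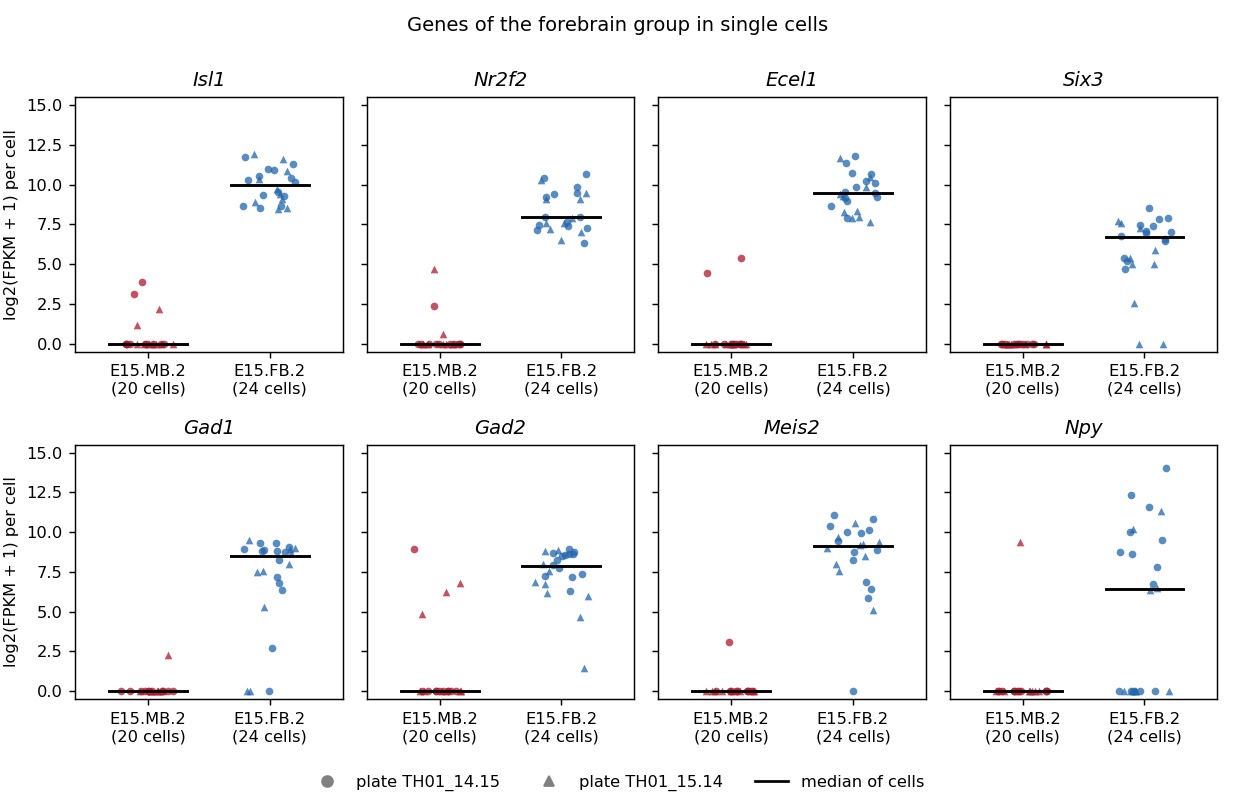
FPKM of 8 genes that were higher in E15.FB.2, in each E15.MB.2 cell and each E15.FB.2 cell, on a log scale after adding 1 FPKM; circles are plate TH01_14.15, triangles plate TH01_15.14 and bars the medians. Isl1, Nr2f2 and Ecel1 do not overlap between the groups, and Npy spreads from 0 to 17001 FPKM among E15.FB.2 cells.

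No neuropeptide named here was present in all cells of either group. Of 13 above the minimum, 3 were called higher and 4 lower in E15.MB.2, beside 13.5% higher and 11.8% lower over all genes tested. Npy, an appetite-related peptide of hypothalamic and GABAergic neurons, was present in 1 E15.MB.2 cell at 666 FPKM and in 13 E15.FB.2 cells (median 84.0 FPKM). In E15.FB.2, 1 cell at 17001 FPKM gave 52.9% of the Npy total. Sst, somatostatin, was present in 1 E15.MB.2 and 10 E15.FB.2 cells, and 4 E15.FB.2 cells had both Npy and Sst, against 13 with Npy and 10 with Sst. Pdyn was present in 2 E15.MB.2 and 5 E15.FB.2 cells. For Pomc, 1 E15.FB.2 cell at 10263 FPKM gave 99.8% of the total, so its call rests on that cell. Gal was present in 5 E15.MB.2 cells and 1 E15.FB.2 cell, Penk in 4 E15.MB.2 cells and 0 E15.FB.2 cells, and Tac1 in 4 E15.MB.2 cells and 2 E15.FB.2 cells (log2 ratio 2.87; 0.16 and 5.67 on the plates). Without the highest cell of each group, overall and on each plate, Penk was no longer called.

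Receptors and ligands that steer axons differed in both directions. Of 32 axon guidance genes tested, 12 were called higher in E15.MB.2 and 8 lower (median log2 ratio 0.10). Over all genes tested, 13.5% were called higher and 11.8% lower. The ligand Ntn1 was present in 18 E15.MB.2 cells (median 48.4, highest 219 FPKM) and its receptor Dcc in 16 (median 61.03, highest 351 FPKM). Both were listed at 0 in every E15.FB.2 cell. Netrin receptors of the Unc5 family, known for repulsion, went in both directions. Unc5c was present in 4 E15.MB.2 cells and 20 E15.FB.2 cells (log2 ratio -3.85; -6.50 and -1.52 on the plates). Unc5d was also called lower (-1.76) and Unc5a higher (1.30; 6 E15.MB.2 cells and 7 E15.FB.2 cells). The calls of Unc5a, Unc5d and Slit2 ended under at least 1 alternative described below, as did those of other members of the list. The Slit receptors were also split. Robo1 was present in 18 E15.MB.2 and 8 E15.FB.2 cells with medians of 29.3 FPKM in E15.MB.2 and 0 FPKM in E15.FB.2 (2.60), and Robo2 in 12 E15.MB.2 and 22 E15.FB.2 cells with medians of 35.7 FPKM in E15.MB.2 and 220.1 FPKM in E15.FB.2 (-1.80). The ligand Slit3 was listed at 0 in E15.MB.2 and present in 11 E15.FB.2 cells, while Slit2 was called higher in E15.MB.2 (1.38; 0.26 on plate TH01_15.14). Among ephrin receptors, Epha5 was higher in E15.MB.2 (15 E15.MB.2 and 8 E15.FB.2 cells, 3.43) and Ephb1 lower (5 E15.MB.2 and 14 E15.FB.2 cells, -2.51).

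**Figure D4:**
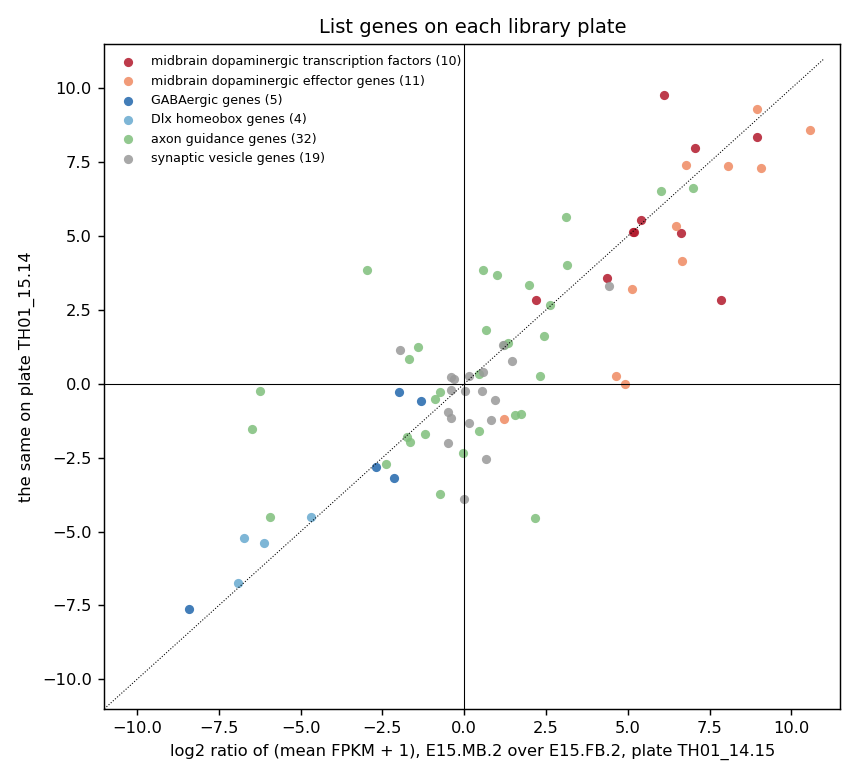
Log2 ratio of E15.MB.2 over E15.FB.2 means (each plus 1 FPKM) on plate TH01_14.15 (x axis) and plate TH01_15.14 (y axis), 1 point per gene of 6 lists; the dotted line marks equal values. All 10 midbrain factors lie above 0 on both plates and all 5 GABAergic and 4 Dlx genes below 0, while the 32 axon guidance genes lie on both sides; where a group is listed at 0 the position depends on the added 1 FPKM.

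Of 13 genes mutated in inherited Parkinson disease, 12 were tested and 11 of these were above 0 in both groups. Of the 12, 4 were called higher in E15.MB.2 and 2 lower (median log2 ratio 0.09), beside 13.5% higher and 11.8% lower over all genes tested. Dnajc6, auxilin, which uncoats clathrin vesicles, was present in 20 E15.MB.2 and 15 E15.FB.2 cells (log2 ratio 2.09), and Uchl1, a ubiquitin hydrolase, in every cell of both groups (medians of 2036 FPKM in E15.MB.2 and 917 FPKM in E15.FB.2, 1.30). Gch1, described above, is also among those called higher. Pla2g6, a phospholipase, was called lower with 7 E15.MB.2 and 8 E15.FB.2 cells (-1.71). Park7, a redox-sensitive chaperone, was not called, with medians of 366 FPKM in E15.MB.2 and 372 FPKM in E15.FB.2.

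Genes shared by neurons served as a comparison. Of 19 synaptic vesicle genes, 3 were called higher in E15.MB.2 and none lower. Over all genes tested, 13.5% were called higher and 11.8% lower, and the counts in this paragraph are to be read beside these shares. Syt4, a synaptotagmin, was present in 20 E15.MB.2 and 11 E15.FB.2 cells (log2 ratio 3.87), and Stx1a and Syp had ratios of 1.16 and 1.23. Of 10 immature neuron genes, Gap43, a growth cone protein, was called higher (medians of 2333 FPKM in E15.MB.2 and 278 FPKM in E15.FB.2, 2.43), and Dcx and Sox4, of migrating and newborn neurons, lower (-1.04 and -1.43). The microtubule gene Tubb3 was present in every cell and not called (0.84). Of 8 immediate early genes, which respond to activity and to dissociation, Nr4a1 was called higher (not so without the highest cells) and Jun, Junb, Egr1, Arc and Npas4 lower. Jun was present in 14 E15.MB.2 and 22 E15.FB.2 cells, with medians of 44.8 FPKM in E15.MB.2 and 409.7 FPKM in E15.FB.2 (-2.51), and Fos was not called (-0.26). The part of dissociation in these values was not tested.

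Signs of other cells and of depth were few but not equal between the groups. The labels gave 4044 to 6817 genes per cell in E15.MB.2 (median 5891) and 3798 to 6430 in E15.FB.2 (median 5028). FPKM totals per cell ran from 276918 through a median of 1.004e+06 to 4.08e+06 in E15.MB.2. In E15.FB.2 they ran from 387756 through 1.15e+06 to 2.28e+06. The highest E15.MB.2 values of Th, Ddc, Gch1, Slc6a3, Nr4a2, Sox6 and Gap43 all came from the same cell, on plate TH01_14.15. The E15.MB.2 means of these genes therefore share that cell. Of 4 erythroid markers, Hba-a1 was called lower, with 1 E15.MB.2 cell and 6 E15.FB.2 cells (not called without the highest cells), and the summed erythroid level per cell ran from 0 to 37.0 FPKM in E15.MB.2 and from 0 to 183 FPKM in E15.FB.2. Microglia markers summed to at most 7.84 FPKM in an E15.MB.2 cell and 0 in E15.FB.2, and vascular markers to at most 1.55 FPKM in E15.MB.2 and 0 in E15.FB.2. Astrocyte and radial glia markers reached 52.4 FPKM in E15.MB.2 and 26.8 FPKM in E15.FB.2, and oligodendrocyte lineage markers 123 FPKM in E15.MB.2 and 189 FPKM in E15.FB.2, in both groups through Mbp. The part of these markers in the differences above was not tested. Genes that every cell uses were listed at 0 in 0.833% of 120 E15.MB.2 values and 0.694% of 144 E15.FB.2 values, so a value of 0 in 1 cell may be a failed estimate. Their summed level had a median of 22730 FPKM in E15.MB.2 and 17074 FPKM in E15.FB.2. These shares therefore do not measure how often lower genes are missed. The eGFP transcript was present in 11 of 20 E15.MB.2 and 3 of 24 E15.FB.2 cells, though all were sorted for EGFP.

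Set beside the other E15.5 clusters, 68 cells labelled E15.MB.1 and 60 labelled E15.FB.1, Th, Nr4a2 and Lmx1a were present most often in E15.MB.2. Th was present in 65% of E15.MB.2 cells, 37.5% of E15.FB.2, 19.1% of E15.MB.1 and 30% of E15.FB.1. Nr4a2 was present in 100.0% of E15.MB.2 cells, 8.33% of E15.FB.2, 10.3% of E15.MB.1 and 11.7% of E15.FB.1. Lmx1a was present in 95% of E15.MB.2 cells, 0% of E15.FB.2, 2.94% of E15.MB.1 and 1.67% of E15.FB.1. Not every gene high in E15.MB.2 over E15.FB.2 was rare elsewhere. Dcc was present in 80% of E15.MB.2 cells, 0% of E15.FB.2, 70.6% of E15.MB.1 and 63.3% of E15.FB.1. Serpine2 was present in 51.5% of E15.MB.1 and 35% of E15.FB.1 cells, Dlk1 in 39.7% of E15.MB.1 and 38.3% of E15.FB.1, and Pdzrn4 in 38.2% of E15.MB.1 and 33.3% of E15.FB.1. Slc17a6 was more frequent in E15.MB.1 (80.9%) than in E15.MB.2 (55%). Isl1 was present in 20.0% of E15.MB.2 cells, 100.0% of E15.FB.2, 11.8% of E15.MB.1 and 48.3% of E15.FB.1. Dlx5 was as frequent in E15.FB.1 (66.7%) as in E15.FB.2 (66.7%). Between E15.MB.1 and E15.FB.1, 931 of 14371 genes were called higher (6.48%) and 1095 lower (7.62%). Of the genes called higher in E15.MB.2 over E15.FB.2, 191 were also called higher in E15.MB.1 over E15.FB.1, which is 10.4% of the E15.MB.2 and E15.FB.2 list and 20.5% of the other, and 133 were called in the opposite direction. Of those called lower, 199 were shared (12.5% of the first list and 18.17% of the second) and 68 were opposite. The clusters of a region come from 1 pool.

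**Figure D5:**
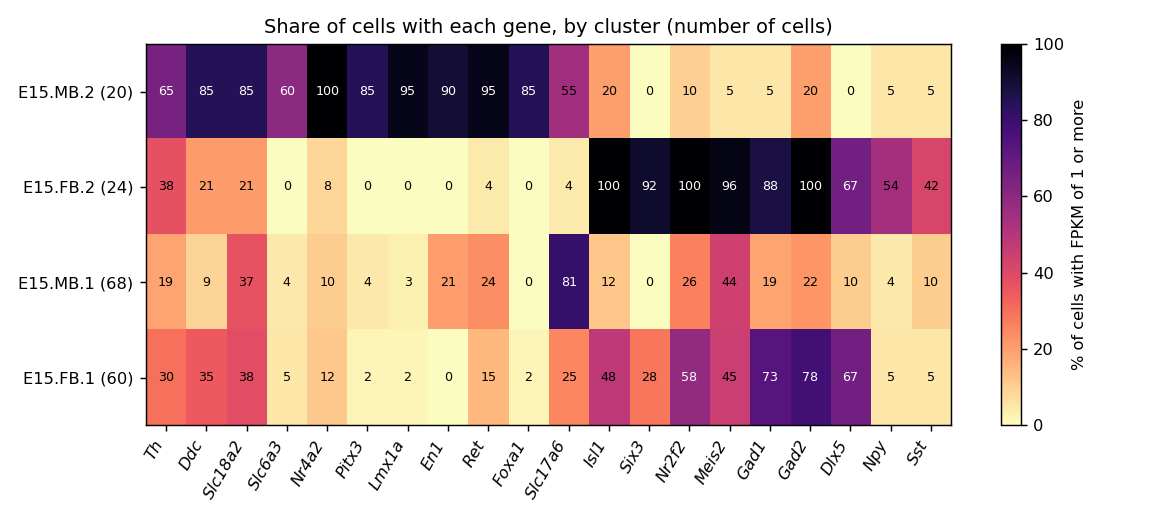
Percent of cells with a gene at FPKM of 1 or more for 20 genes (columns) in E15.MB.2, E15.FB.2, E15.MB.1 and E15.FB.1 (rows); colour and printed numbers are the percent. Nr4a2 is present in 100.0% of E15.MB.2 cells and 8.33% of E15.FB.2 cells, and Isl1 in 20.0% and 100.0%.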

How the data were processed

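The values used are FPKM as deposited by the authors; the submitters' processing notes name HISAT2, Cuffnorm and the build mm10; versions, annotation release and strand setting are not given in the sources used here, and read depth per cell is unknown. Symbols came from GENCODE M21, which matched 28636 of 28952 features. The number of genes in the labels was compared with that in the column of the same name (r of 0.996 and 0.999 on plates TH01_14.15 and TH01_15.14, minimum 0.9). No columns were identical. No doublet caller was run, since wells were filled by sorting.

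Group means over cells were compared as log2 ratios after adding 1 FPKM, with no filter on cells. Genes needed a mean of at least 1 FPKM in either group. A call needed 2-fold and the same direction on both plates. Shares carry exact Clopper-Pearson 95% intervals for counting error. No fold is given against a group listed at 0. The genes named were Th, eGFP, the 12 highest and 12 lowest by ratio (mean of at least 20 FPKM, at least 50% of cells of the higher group, same direction on both plates and in the mean of logs), and members of 24 lists by role and size. The cells and lists were chosen with earlier results of these data known. Some list members are not reported here. The steps were tested on simulated data. Alternatives were other pseudocounts, filters and thresholds, a mean of logs, single plates, rescaled totals, the highest cell left out and cells of like gene number. The highest cell was left out of each group, and for the direction on a plate, out of each group on that plate. Python 3.11.15, pandas 2.3.3, numpy 2.4.6, scipy 1.17.1 and matplotlib 3.10.9 were used.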

Additional observations from a re-analysis of the deposited data

How the results depend on the processing

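No paired analysis was possible because replicate numbers only name cells and no result comes from a test. All 24 genes named by size stayed called under each alternative run. They were picked for the largest ratios, with the same direction on both plates and in the mean of logs. Their staying called was thus largely set by that choice. Of 103 called genes named or listed, the alternatives lost at most 19, in the 11 and 19 cells with 4500 to 6000 genes, where Drd2, Sox6, Penk and Pomc were among those lost. Calls of named genes that ended under at least 1 alternative were those of Spr, Pcbd1, Maoa, Maob, Drd2, Sox6, Calb1, Chrna3, Slc32a1, Slit2, Penk, Pomc, Pdyn, Tac1, Syp, Stx1a, Dcx, Pla2g6, Npas4, Unc5a, Unc5d, Nr4a1 and Hba-a1. A pseudocount of 10 gave 980 genes higher and 794 lower, and list medians of 2.51 (synthesis), 2.70 (midbrain factors), 4.12 (effectors), -3.17 (hypothalamic factors), -3.50 (Dlx) and -0.25 (neuropeptides). A pseudocount of 0.1 gave 8.60 (midbrain factors), 8.39 (effectors) and -8.73 (hypothalamic factors). The mean of logs, which moved the median of all genes to 0.18, gave 2030 genes higher and 946 lower, of which 1076 and 667 were among the 1836 and 1597 reported, and medians of 2.52 (synthesis), 3.64 (midbrain factors), 3.12 (effectors), -4.32 (hypothalamic factors), -3.29 (Dlx), -4.45 (GABAergic) and 0.10 (neuropeptides, reversed). Without the highest cells 1369 genes were higher and 1434 lower, of which 1105 and 1060 were among those reported. In this setting the storage median was 4.72 and the neuropeptide median 0, which had no direction. By a rule without the condition on both plates, plate TH01_14.15 alone gave 3506 genes higher and 2744 lower, with a neuropeptide median of 0.16 (reversed). Plate TH01_15.14 alone gave 3212 and 3509, with medians of 2.84 (synthesis), -0.39 (neuropeptides) and -2.89 (immediate early). In the cells with 4500 to 6000 genes the medians were 3.62 (synthesis), 4.52 (effectors) and -0.22 (neuropeptides). The neuropeptide median thus has no stable direction. At FPKM of 5 or more, Pdzrn4 was in 0 E15.FB.2 cells and Gad1 in 0 E15.MB.2 cells. For changes that follow from another pseudocount or fewer cells, no other cause was tested. With 1 pool per region and 20 and 24 cells, small differences in shares are within counting error.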
